A study of Homo sapiens with 10 samples.

Results

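The endoplasmic reticulum (ER) folds the proteins that a cell secretes or places in its membranes, and 10 genes that sense unfolded proteins there or remove them were followed in ARPE-19 cells, an established human retinal pigment epithelial (RPE) cell line. They were the rows of the deposited count table whose symbol was XBP1, ATF6, ERN1, EIF2AK3, SEL1L, SYVN1, HERPUD1, EDEM1, DERL1 or OS9, which makes 10 genes of 22626 rows in all. Cells were kept for 48 h in control medium that held 32 mM mannitol beside 5.5 mM D-glucose (control group, n = 5) or in medium with D-glucose at 37.5 mM (HG group, n = 5). Mannitol was named for the control medium alone, where it raises the concentration of dissolved molecules. All cells were the same line, without a transgene, in DMEM with fetal bovine serum. The study's methods speak in general of independent experiments, but whether the 5 sequenced samples of a group came from separate cultures was not given in the sources used here, so p-values measure the spread between these samples, which may be technical. All 10 genes passed the filter on low counts that left 14936 rows for testing.

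The unfolded protein response has a sensor for each of its 3 arms. IRE1, encoded by ERN1, cuts a short segment out of XBP1 mRNA so that the active transcription factor XBP1 is made, PERK, encoded by EIF2AK3, phosphorylates a translation initiation factor and so favours translation of ATF4, and ATF6 is cut in the Golgi to release a transcription factor. ER-associated degradation removes proteins that do not fold: OS9, a lectin, and EDEM1, which acts on mannose residues, mark and deliver them, SEL1L, the adaptor, and SYVN1, the ubiquitin ligase also called HRD1, form the membrane complex, and HERPUD1 and DERL1 belong to the same channel machinery. RPE cells depend on this system because they secrete and take up large amounts of protein.

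Total counts lay between 33039260 and 45864176 in the control libraries and between 32448991 and 44400714 in the HG libraries. The HG libraries are named by the number of their column, since the labels gave their group but not which sample a column was. The log2 counts of HG column 1 and control replicate 2 followed GC content, with slopes of 0.188 and 0.17 per 10 percentage points, while the slopes of the other 8 libraries were between -0.0916 and -0.00519. These libraries stood apart from the rest of their groups, and results that rest on them are given with and without them. TXNIP, a gene that glucose induces, was higher in every HG library than in every control library (log2 fold change 3.15). Of 12 RPE markers, 9 reached a mean of 1 CPM (counts scaled to a common library size), while RPE65, the retinoid isomerase that defines mature RPE, had between 0 and 6 counts per library. The summed level of the RPE markers, most of it from the keratins KRT8 and KRT18, was between 2843 and 3583 CPM in the control group and between 1819 and 2387 CPM in the HG group, and its part in the results was not tested. KRT8, KRT18 and PMEL fell (log2 fold changes -0.62, -0.68 and -0.72), while RLBP1, LRAT, TYRP1, MITF, OTX2 and SERPINF1 did not pass. BEST1, a chloride channel of the RPE, stood at 263 and 552 CPM in control replicates 1 and 4 and between 0.579 and 7.53 CPM in the other 8 libraries, and it did not pass (adjusted p 0.067 by edgeR). Of 3 markers of Mueller glia, GLUL, a glutamine synthetase that many cells make, alone reached 1 CPM and AQP4 was at 0, and their sum was between 96.9 and 112 CPM in the control libraries and between 98.8 and 111 in the HG libraries. Of 4 endothelial markers, KDR alone reached 1 CPM and CDH5 was at 0, and their sum was between 2.94 and 5.05 CPM in the control libraries and between 2.06 and 3.06 in the HG libraries. Of 3 leukocyte markers, CD68, a lysosomal gene, alone reached 1 CPM, CD3E was at 0 and PTPRC had 0 to 4 counts, and their sum was between 54.4 and 79 CPM in the control libraries and between 103 and 139 CPM in the HG libraries.

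The sequences that the response reads are printed here because HERPUD1, XBP1 and HSPA5, the ER chaperone BiP that serves as its usual readout, each carry a known response element before their start. RefSeq promoter windows of GRCh38.p14, each of 300 bases with 250 before the start and 50 after it, were found for 9 of the 10 genes. They were searched on both strands for the ER stress response element ERSE (CCAAT and CCACG with 9 free bases between them), the element ERSE-II (ATTGG and CCACG with 1 free base between them), the core of the unfolded protein response element (TGACGTGG) and the core of the C/EBP-ATF element (TGATGNAA). ERSE was held by 27 of all 35116 windows (0.0769%) and, among the 10 genes, by XBP1. ERSE-II was held by 19 windows (0.0541%) and, among the 10 genes, by HERPUD1, which also held the C/EBP-ATF core that 1270 windows (3.62%) held. The unfolded protein response element core was in 256 windows (0.729%) and in none of those of the 10 genes. The stretches below run 5′ to 3′ on the strand of the gene and stop before the outermost annotated transcript, and capitals mark the matched letters, none of which overlapped another match. XBP1 was read at chr22:28800598-28800819 (minus strand), with ERSE from 52 to 34 bases before the RefSeq start. HERPUD1 was read at chr16:56931892-56932047 (plus strand), with the C/EBP-ATF core on the other strand from 176 to 169 bases and ERSE-II from 117 to 107 bases before the start. HSPA5 was read at chr9:125241344-125241593 (minus strand), with ERSE from 66 to 48 bases before the start. A match describes the letters and not a bound site.
XBP1: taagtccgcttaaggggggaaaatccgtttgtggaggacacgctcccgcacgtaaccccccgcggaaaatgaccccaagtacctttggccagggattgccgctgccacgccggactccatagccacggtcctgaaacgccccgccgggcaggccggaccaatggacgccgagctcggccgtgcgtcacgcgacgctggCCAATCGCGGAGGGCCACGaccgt
HERPUD1: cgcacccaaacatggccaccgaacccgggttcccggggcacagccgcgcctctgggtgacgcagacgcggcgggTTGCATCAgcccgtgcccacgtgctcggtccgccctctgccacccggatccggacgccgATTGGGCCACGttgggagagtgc
HSPA5: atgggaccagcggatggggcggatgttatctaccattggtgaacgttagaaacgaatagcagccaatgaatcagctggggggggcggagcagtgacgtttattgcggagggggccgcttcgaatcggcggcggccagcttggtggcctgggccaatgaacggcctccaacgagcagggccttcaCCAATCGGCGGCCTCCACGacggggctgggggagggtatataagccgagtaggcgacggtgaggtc

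The segment of XBP1 that IRE1 removes lies in exon 4 of 5 of the gene, at chr22:28796124-28796149 on the minus strand (GRCh38, GENCODE release 29), within the coding sequence. It is 26 bases long, so its removal shifts the reading frame, and the annotated coding sequences have 261 codons with the segment and 376 without it. The stretch of 106 bases around it is shown because the counts per gene below add up both forms. They give the level of XBP1 RNA and cannot give the share that was cut. Capitals mark the segment as annotated, which the repeated letters at its ends allow to be placed in 7 equivalent ways.
XBP1 segment: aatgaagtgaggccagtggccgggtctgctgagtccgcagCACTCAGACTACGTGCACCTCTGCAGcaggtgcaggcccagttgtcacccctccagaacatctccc

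Levels of different genes were compared as FPKM, which is divided by transcript length. In the control group OS9 was highest at 98.0 ± 5.79 FPKM (SD, n = 5), followed by HERPUD1 at 45.9 ± 1.18 and XBP1 at 43.3 ± 1.64 FPKM, whose ranges overlapped. DERL1 followed at 20.4 ± 1.79 FPKM, below every XBP1 value and above every ATF6 value. ATF6 (13.8 ± 1.40), SYVN1 (13.5 ± 0.476), SEL1L (12.7 ± 2.2), EDEM1 (9.67 ± 0.75) and EIF2AK3 (8.20 ± 0.984) formed a run in which each gene overlapped the next. ERN1 was lowest at 0.749 ± 0.164 FPKM, below every EIF2AK3 value. Thus of the membrane sensors, the IRE1 transcript was the scarcest, while the ligase SYVN1 and its adaptor SEL1L had FPKM values that overlapped. The ratio of counts to FPKM, scaled per library, varied 1.26-fold between libraries for ATF6 and 1.01-fold for SEL1L, against a median of 1.05-fold over 10414 rows, so the FPKM values of ATF6 are not a fixed multiple of its counts.

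To find whether high glucose changed the RNA of this system, the groups were compared gene by gene in the fit over all 14936 rows. XBP1, EIF2AK3 and SYVN1 fell in the HG group, that is a transcription factor, a sensor and the ligase of the degradation complex. With the quasi-likelihood test of edgeR, adjusted by Benjamini-Hochberg over all rows tested, 3 of the 10 genes (30%) had an adjusted p under 0.05, beside 15.4% of all genes tested, and all 3 were lower, beside 7.8% of all genes. None passed a fold change of 1.5 with an unadjusted p under 0.05, a limit that 5.17% of genes passed. The groups did not overlap for 2 of the 10 genes, beside 13.6% of all genes, and both were lower in the HG group, beside 6.91%. The count of 3 was the same without HG column 1 and control replicate 2, where 27.1% of all genes passed, and with the GC content and length correction, where 29.3% did, and it was 1 to 3 when a library was left out. The median log2 fold change of the 10 genes was 0.01, and that of all genes tested was 0.00. With so few genes these counts describe the 10 genes and single out no property of the list.

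**Figure D1:**
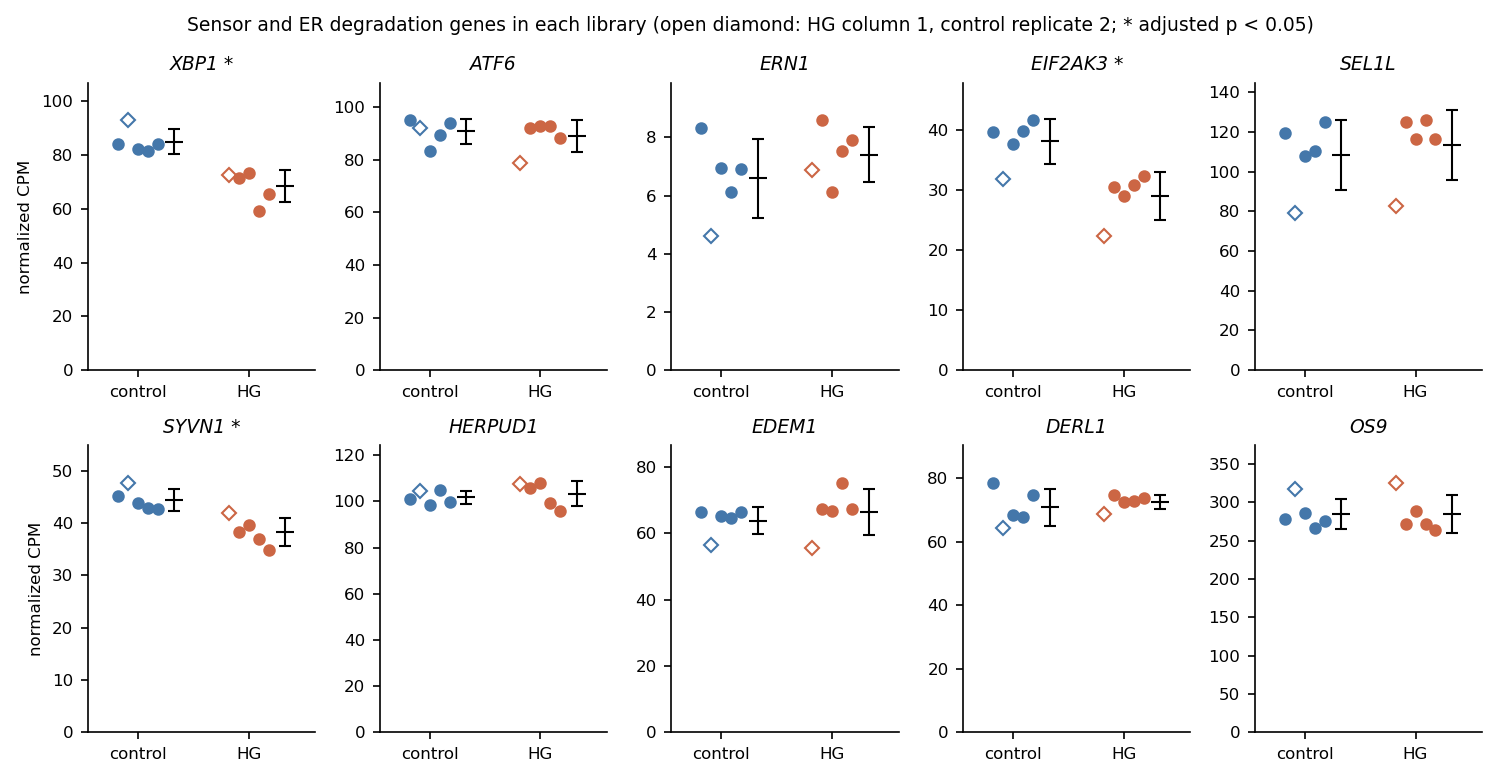
CPM, counts scaled to the normalized library size (vertical axis from 0), of each of the 10 genes in the 5 control and 5 HG libraries, with the mean and SD beside the points. Open diamonds are control replicate 2 and HG column 1, and a star marks an adjusted p under 0.05. XBP1 and SYVN1 have no HG library as high as the lowest control library, and SEL1L is low in both diamonds, at 79.1 and 82.6 CPM.

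XBP1, the transcription factor made after the IRE1 cut, stood at 84.1, 92.8, 82.3, 81.3 and 84.2 CPM in control replicates 1 to 5 and at 72.6, 71.6, 73.3, 59.2 and 65.5 CPM in HG columns 1 to 5. Every HG library was below every control library, with the lowest HG values in columns 4 and 5 and the highest control value in replicate 2. The mean was 84.9 ± 4.57 CPM for the control group against 68.4 ± 6.02 for the HG group (SD, n = 5 each), a log2 fold change of -0.31 ± 0.07 (SE) with an adjusted p of 0.00999 by edgeR, or a change of -19.4% with a 95% interval from -27.2% to -10.7%. In bulk RNA, less of a transcript per cell and fewer cells that carry it cannot be told apart. The gene spans chr22:28794555-28800597 (minus strand, GRCh38, GENCODE release 29) and shares no exonic base with another annotated gene.

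EIF2AK3, the gene of the PERK kinase at chr2:88556741-88627576 (minus strand), stood at 39.7, 31.8, 37.7, 39.8 and 41.6 CPM in the control group and at 22.3, 30.5, 29, 30.9 and 32.4 CPM in the HG group. Control replicate 2 and HG column 1 were the lowest of their groups, and the groups touched where control replicate 2 fell below HG column 5. The mean was 38.1 ± 3.77 CPM for the control group against 29 ± 3.94 for the HG group, a log2 fold change of -0.39 ± 0.11 with an adjusted p of 0.0282 by edgeR, or -23.9% with an interval from -35.2% to -10.6%. Without HG column 1 and control replicate 2 the log2 fold change was -0.37 and the adjusted p 0.000687. The call was lost without any of 5 of the 10 libraries (HG column 3 and control replicates 1, 3, 4 and 5), with adjusted p-values between 0.0554 and 0.0734. Of its exonic bases, 15.1% are shared with the antisense genes AC104134.1 and AC062029.1, and whether the counting used strand was not given in the sources used here.

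ATF6, the sensor that is itself a transcription factor, stood at 94.9, 91.9, 83.4, 89.5 and 94.2 CPM in the control group and at 78.6, 92.1, 92.9, 92.8 and 88.1 CPM in the HG group. The HG values lay within the control range except HG column 1. The log2 fold change was -0.03 with a 95% interval from -0.16 to 0.10 and an adjusted p of 0.796 by edgeR, and without HG column 1 it was 0.0146.

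ERN1, the gene of IRE1, had the fewest counts of the 10 genes, with 202 to 308 counts per control library and 248 to 354 per HG library. It stood at 8.34, 4.62, 6.95, 6.11 and 6.92 CPM in the control group and at 6.88, 8.58, 6.11, 7.54 and 7.91 CPM in the HG group, with the lowest value in control replicate 2. The groups overlapped, and the log2 fold change of 0.17 had an interval from -0.17 to 0.51 (adjusted p 0.535 by edgeR), the widest of the 10 genes. A rise as large as the fall of XBP1 lay inside that interval.

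SYVN1, the ubiquitin ligase of the degradation complex at chr11:65121780-65134533 (minus strand), stood at 45.1, 47.7, 43.8, 42.8 and 42.6 CPM in the control group and at 41.9, 38.3, 39.7, 37.0 and 34.8 CPM in the HG group. The groups did not overlap, although HG column 1 and control replicate 5 differed by less than the SD of either group. The mean was 44.4 ± 2.08 CPM for the control group against 38.3 ± 2.70 for the HG group, a log2 fold change of -0.21 ± 0.06 with an adjusted p of 0.0352 by edgeR, or -13.7% with an interval from -21.2% to -5.44%. The call was kept when HG column 1 was left out and lost when any other of the 10 libraries was left out, with adjusted p-values between 0.053 and 0.0813, while the log2 fold change stayed between -0.24 and -0.18. Without both HG column 1 and control replicate 2 the adjusted p was 0.00792. SYVN1 shares 14.9% of its exonic bases with other genes, among them FAU on the same strand (log2 fold change 0.06, adjusted p 0.794) and MRPL49 on the other strand (0.24, adjusted p 0.0477), and the part of shared reads in its change was not tested.

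SEL1L, the adaptor that holds SYVN1 in the complex, stood at 119, 79.1, 108, 111 and 125 CPM in the control group and at 82.6, 125, 117, 126 and 116 CPM in the HG group. Control replicate 2 and HG column 1 lay far below the other libraries, and the remaining values overlapped. The log2 fold change was 0.06 with an interval from -0.24 to 0.37 (adjusted p 0.822 by edgeR), and without these 2 libraries it was 0.06 with a narrower interval from -0.05 to 0.18 (adjusted p 0.414).

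HERPUD1, a membrane protein of the degradation complex that the response induces, stood at 101, 105, 98.4, 105 and 99.7 CPM in the control group and at 107, 106, 108, 99.5 and 95.8 CPM in the HG group. The groups overlapped over most of their range. Its log2 fold change was 0.02 with an interval from -0.08 to 0.12 (adjusted p 0.804 by edgeR), which in percent runs from -5.3% to 9.02%.

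EDEM1, which recognises proteins whose mannose residues have been trimmed, lay between 56.6 and 66.3 CPM in the control group and between 55.7 and 75.3 CPM in the HG group. Its lowest values were those of control replicate 2 and HG column 1, and its log2 fold change was 0.06 with an interval from -0.11 to 0.23 (adjusted p 0.697 by edgeR). DERL1, a component of the channel, lay between 64.5 and 78.6 CPM in the control group and between 68.7 and 74.8 CPM in the HG group, so that the HG range lay inside the control range. Its log2 fold change was 0.03 with an interval from -0.10 to 0.16 (adjusted p 0.779). OS9, the lectin that binds trimmed glycans, lay between 266 and 317 CPM in the control group and between 263 and 326 CPM in the HG group. The highest OS9 value of each group was that of control replicate 2 or HG column 1, and the log2 fold change was -0.00 with an interval from -0.15 to 0.15 (adjusted p 0.995).

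The 10 genes differed in how far they deviated in the libraries that stood apart. SEL1L, with the lowest GC content of the 10 transcripts (39.4%), differed by -0.55 log2 in HG column 1 from the other HG libraries and by -0.55 in control replicate 2 from the other control libraries. SYVN1, with the highest (58.9%), differed by 0.16 and 0.13, and OS9 (54.7%) by 0.25 and 0.20. The values did not follow GC content throughout. ERN1 (50.8%) differed by -0.12 and -0.60, while ATF6 (41.3%) differed by -0.22 and 0.02, less than EIF2AK3 (44.4%) at -0.46 and -0.32. These libraries sit in different groups, so their deviations are part of the spread within each group.

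**Figure D2:**
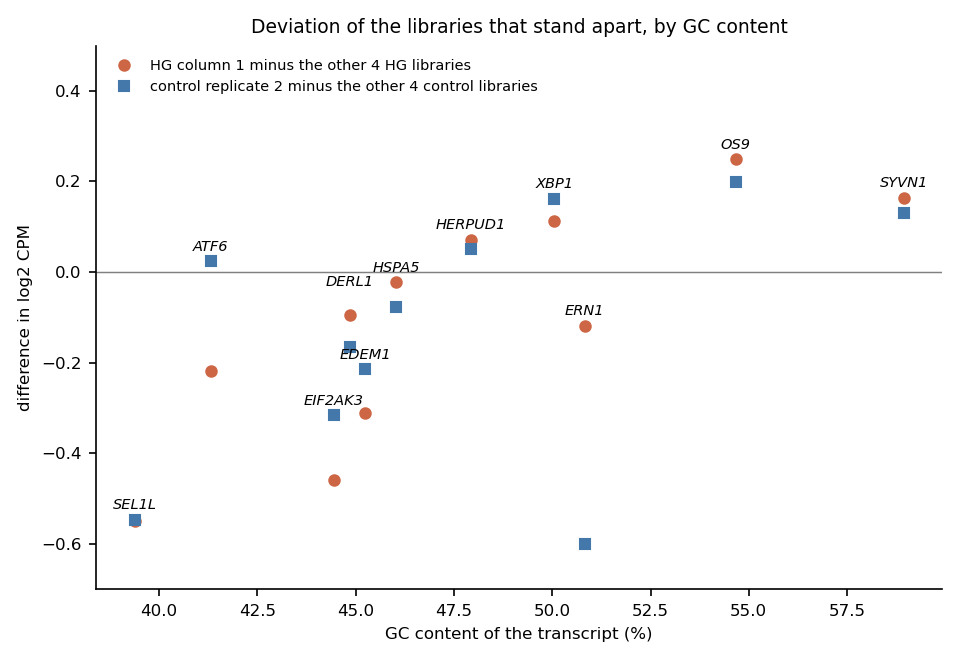
Difference in log2 CPM between HG column 1 and the other 4 HG libraries (circles) and between control replicate 2 and the other 4 control libraries (squares), against the GC content of the transcript in percent, for the 10 genes and HSPA5. SEL1L lies at -0.55 in both comparisons, and OS9 and SYVN1 lie above 0 in both.

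When the dependence of every library on GC content and on transcript length was taken out, the same 3 genes passed. The log2 fold change of XBP1 was then -0.35 ± 0.05 (adjusted p 0.000343), that of EIF2AK3 -0.40 ± 0.06 (adjusted p 0.000466) and that of SYVN1 -0.18 ± 0.04 (adjusted p 0.00943), all by edgeR with the correction as offsets. The remaining genes did not pass, and the interval of SEL1L narrowed to between -0.03 and 0.20 and that of EDEM1 to between -0.01 and 0.15. The interval of ERN1, from -0.06 to 0.51, stayed wide.

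**Figure D3:**
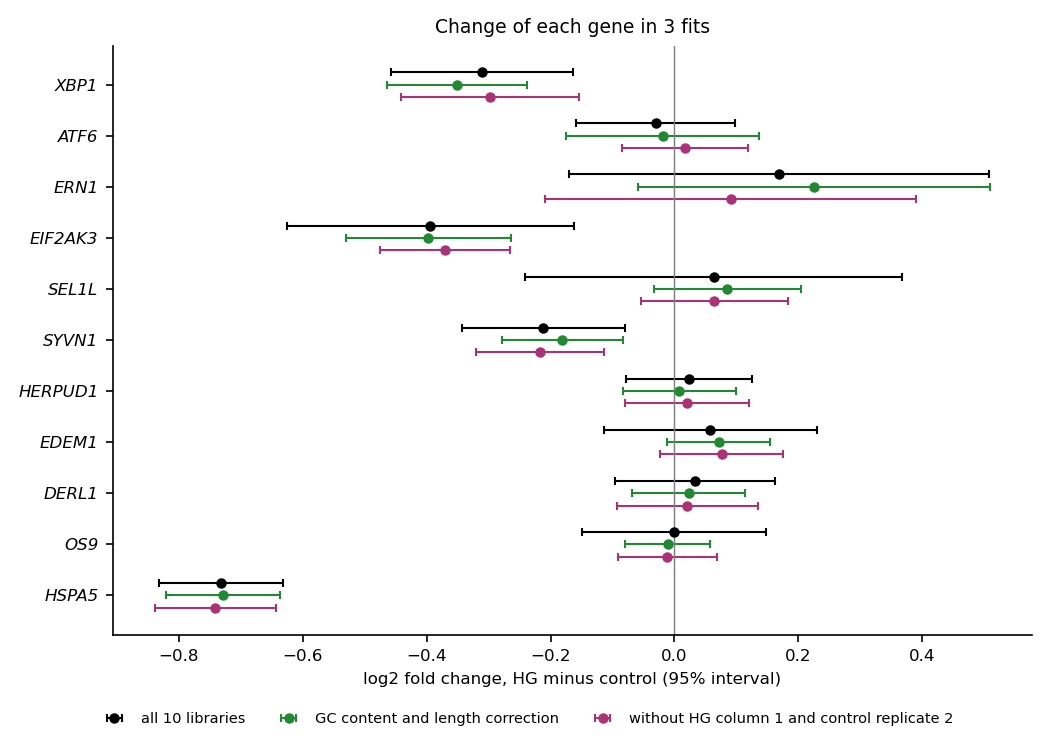
Log2 fold change between the HG and control groups (horizontal axis, points with 95% intervals) of the 10 genes and HSPA5 with all 10 libraries, with the GC content and length correction, and without HG column 1 and control replicate 2. XBP1, EIF2AK3, SYVN1 and HSPA5 lie below 0 with their whole interval in all 3 fits, and the intervals of the other 7 genes include 0.

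SYVN1 and SEL1L act together, so their counts were also set against each other within each library, which needs no scaling between libraries. The ratio of SYVN1 to SEL1L counts was 0.377, 0.603, 0.405, 0.387 and 0.341 in the control libraries and 0.507, 0.306, 0.340, 0.294 and 0.299 in the HG libraries. In 4 of 5 HG libraries the ratio was below every control value, and HG column 1 was above 4 of the 5 control values. The log2 difference of -0.28 did not pass when all 252 ways of splitting the libraries into groups of 5 were compared (two-sided exact permutation p = 0.222). Without HG column 1 the difference was -0.42 (exact p = 0.0159), without control replicate 2 it was -0.14 (exact p = 0.444), without both it was -0.29 (exact p = 0.0286), and after the correction for GC content and length, added after seeing the data, it was -0.27 (exact p = 0.00794, the smallest that 5 against 5 libraries can give). The result therefore turned on the libraries that stood apart.

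HERPUD1 and HSPA5 are both induced in the unfolded protein response, and they parted here. The ratio of HERPUD1 to HSPA5 counts lay between 0.101 and 0.115 in the control libraries and between 0.169 and 0.191 in the HG libraries, without overlap. The log2 difference was 0.75, a ratio 1.69-fold higher in the HG group, with an exact permutation p of 0.00794 (two-sided, adjusted p 0.0159 over the 2 ratios). It was between 0.73 and 0.78 when any library was left out and 0.74 after the GC content and length correction. Taken singly, HERPUD1 had a log2 fold change of 0.02 and HSPA5 of -0.73, so the ratio mostly restates the fall of HSPA5. The exact p is the smallest that 5 against 5 libraries can give.

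**Figure D4:**
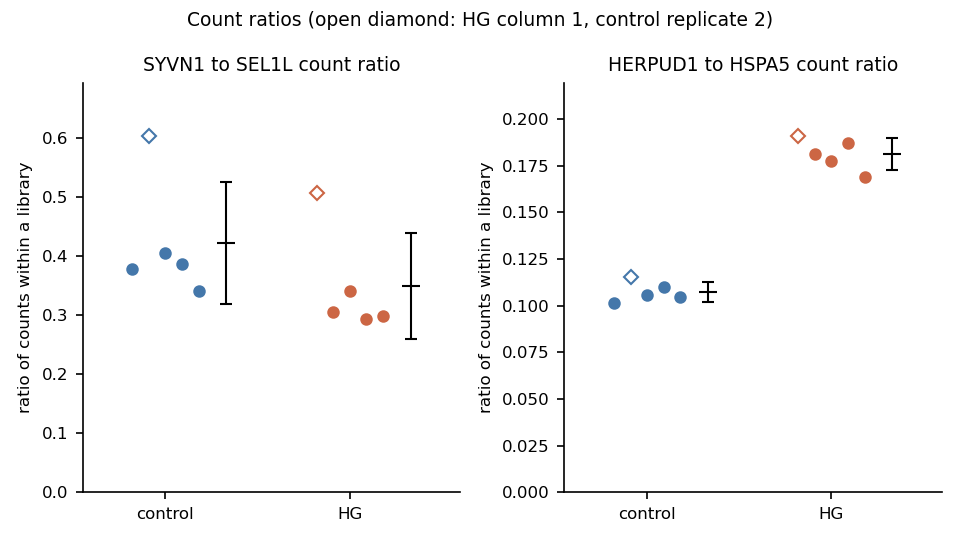
Ratio of SYVN1 to SEL1L counts (left) and of HERPUD1 to HSPA5 counts (right) within each library, with the mean and SD of the 5 control and 5 HG libraries. Open diamonds are control replicate 2 and HG column 1, which have the highest SYVN1 to SEL1L ratios of their groups (0.603 and 0.507), and the HERPUD1 to HSPA5 ratios of the groups do not overlap.

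HSPA5, the chaperone that holds the sensors inactive, stood at 998, 908, 930, 953 and 954 CPM in the control group and at 563, 586, 608, 532 and 567 CPM in the HG group. Every HG library was far below every control library (log2 fold change -0.73 ± 0.05, adjusted p 1.95e-05 by edgeR). In the list of 14 ER chaperone targets of the response, 8 genes fell (57.1%), none rose and 6 did not pass, beside 7.8% of all genes that were lower, with a median log2 fold change of -0.37. Beside HSPA5, HYOU1, which exchanges its nucleotide, fell by 0.62 on the log2 scale and DNAJB11, a co-chaperone, by 0.54 (adjusted p 0.000566 and 7.19e-05). HSP90B1, CALR, MANF, DNAJC3 and PDIA4 also fell, by between 0.31 and 0.51. The list was drawn up from genes that ATF6 or XBP1 are known to induce.

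EIF2AK3, the sensor of the PERK arm, fell, while ATF4, the factor whose translation PERK favours, went from 283 ± 23.7 to 373 ± 37.4 CPM (log2 fold change 0.40, adjusted p 0.00583 by edgeR). DDIT3, the gene of CHOP, went from 23.4 ± 4.22 to 40.1 ± 6.98 CPM (0.78, adjusted p 0.00441), without overlap between the groups for either gene. Of 12 genes listed for this arm beside EIF2AK3, 4 rose, 1 fell and 7 did not pass (41.7% passed, beside 15.4% of all genes), with a median log2 fold change of 0.03. CHAC1, which breaks down glutathione, rose by 1.67 and TRIB3, a pseudokinase, by 1.27 on the log2 scale (adjusted p 0.00402 and 2.86e-05), and DNAJC3 was the gene that fell. ATF4 is also reached from other kinases of the same initiation factor, EIF2AK1, EIF2AK2 and EIF2AK4, and the RNA of none of them passed. RNA levels do not give kinase activity, and the part of any of these kinases in the change of ATF4 was not tested. DNAJB9, an ER co-chaperone used as a readout of XBP1, went from 26.9 ± 0.767 to 29.6 ± 3.22 CPM and did not pass (0.14, adjusted p 0.246).

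Around ATF6, 1 of 12 tested genes rose and 1 fell (16.7% passed, beside 15.4% of all genes). CREB3L1, a related membrane-bound factor, rose by 0.60 on the log2 scale (adjusted p 0.00104), and NFYB, a subunit of the factor that binds CCAAT, fell by 0.20 (adjusted p 0.0365), a call lost under 11 of 21 alternative settings. Among 13 genes of the IRE1 arm and its partners, TMBIM6, an ER membrane protein that restrains IRE1, rose by 0.24 (adjusted p 0.000948) and 12 did not pass (7.69% passed). With a library left out each list had 1 to 3 genes that passed, and 1648 to 2993 of all genes passed in place of 2303. With the tool DESeq2, 3 genes of the ATF6 list (25%) and 4 of the IRE1 list (30.8%) passed, beside 19.9% of all genes there. Without HG column 1 and control replicate 2, 6 genes of the ATF6 list and 3 of the IRE1 list passed, and with the GC content and length correction 5 of each did, beside 27.1% and 29.3% of all genes in those fits. The medians of the ATF6 and IRE1 lists were 0.02 and 0.01.

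Over 80 tested genes in 5 lists of the wider degradation machinery, 14 passed (17.5%), 8 higher and 6 lower, beside 15.4% of all genes, with a median log2 fold change of 0.02. Without HG column 1 and control replicate 2, 29 passed (36.2%), beside 27.1% of all genes in that fit. Among 14 glycan and lectin genes, FBXO2, which recognises glycoproteins in the cytosol, fell by 1.10 from 2.82 ± 0.477 CPM and MAN1C1, a mannosidase, rose by 0.49. In the membrane channel and ligase complex, 2 of 15 genes rose and 2 fell, among them SEL1L3, a relative of SEL1L, which rose by 0.32 (adjusted p 0.0127), and UBE2J1 and UBAC2, at -0.21 and -0.16, whose calls were each lost under 13 of 21 alternative settings. With a library left out, 1 to 3 of these 15 genes passed in place of 4, and 1 to 5 of the glycan and lectin genes in place of 2, with 5 without HG column 1. Of all genes, 1648 to 2993 passed with a library left out in place of 2303, the most without HG column 1. With the GC content and length correction, 7 of the 15 passed (46.7%), beside 29.3% of all genes in that fit. Of 17 other ER ubiquitin ligases and scaffolds, INSIG1, which couples sterols to degradation, rose by 0.93 and TMEM129 by 0.30, RNF185 also rose, and RNF121 fell by 0.34. Of 24 genes of extraction by p97, YOD1, a deubiquitinase, had a log2 fold change of 0.45 and lost its call under 13 of the 21 settings, SVIP rose by 0.24 and 22 did not pass, while 1 to 4 of the 24 passed with a library left out and 8 without HG column 1 and control replicate 2. Among 10 luminal helpers, DNAJB11 and PDIA3 fell, the latter by 0.21. Without HG column 1, 4 of the 10 passed, where 2993 of all genes passed in place of 2303. Without HG column 1 and control replicate 2, 5 passed (4 lower), beside 27.1% of all genes. With the GC content and length correction, 6 passed (5 lower), beside 29.3% of all genes.

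**Figure D5:**
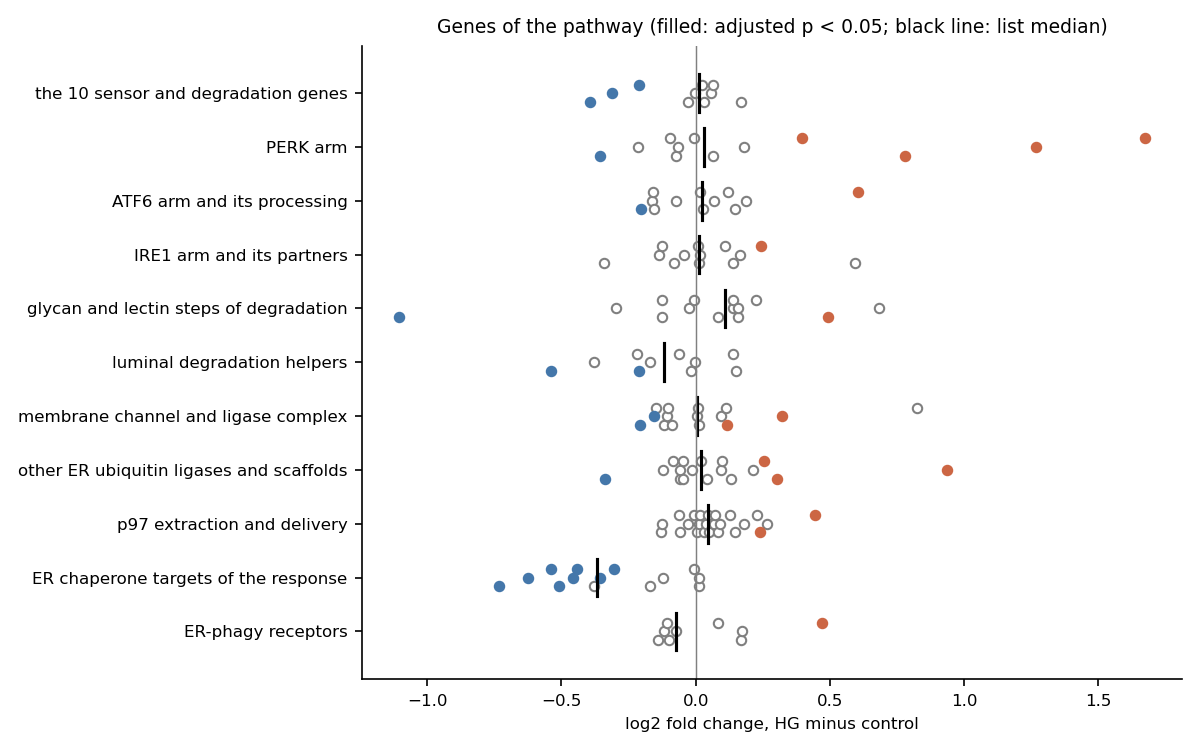
Log2 fold change between the HG and control groups (horizontal axis) of the 10 genes and of every tested gene in 10 lists of the pathway, with 1 point per gene. Filled points have an adjusted p under 0.05, and black lines are list medians. The ER chaperone list has 8 filled points below 0 and none above, and the PERK list reaches 1.67.

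Counted once each, 29 of 135 list genes passed (21.5%), 15 higher and 14 lower, beside 15.4% of all genes tested, and 53 (39.3%) passed without HG column 1 and control replicate 2, beside 27.1% of all genes in that fit. The lists were chosen with earlier results of these data known. Of 35 genes named in the text that passed and are not among the 10, markers of cell types included, 23 passed under all 21 alternative settings without a block by column number. The calls lost under 1 to 14 of the settings were those of KDR, NFYB, MAN1C1, PDIA3, UBE2J1, UBAC2, RNF121, TMEM129, YOD1, SVIP, MRPL49 and CCPG1, an ER-phagy receptor, none with a change of sign.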

How the data were processed

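RNA of 10 ARPE-19 samples was sequenced. Per the labels, reads were trimmed with fastp 0.20.1 and aligned with HISAT2 2.2.1 to GRCh38, and the counting program, annotation and strand setting were not given in the sources used here. The authors deposited whole-number counts per gene without normalization, and FPKM values, which they divided by transcript length and library size. Counts were tested with edgeR 4.0.16 in R 4.3.3 (default filter on low counts, TMM normalization, quasi-likelihood test, Benjamini-Hochberg over 14936 rows), after a test on simulated data. Rows named MSTRG, 2163 of 22626, held 1.34% to 1.65% of a library. CPM values of the cell type markers use the total counts of a library, and all other CPM values use the normalized library size. A limit of 3 counts is what a count of 0 allows, for counting error only. Intervals are at 95%. Count ratios within a library were tested by exact permutation. GC content and length came from GENCODE release 29 and promoters from RefSeq. The alternatives were the tool DESeq2 1.42.0, scaling by RLE or by library size alone, filtering not at all or at 10 counts in every library, limma 3.58.1 with log2(FPKM + 1), also for mean FPKM of 1 or more, and with log2(FPKM + 0.1), each library left out, no MSTRG rows, no HG column 1 and control replicate 2, column number as a block (added after seeing the data), and a lowess correction (span 0.3) for GC content and length over 13538 rows. The 10 member genes and the lists were chosen with earlier results of these data known. Named beside the 10 genes are 4 readouts, TXNIP and up to 3 genes per list with an adjusted p under 0.05, the largest absolute log2 fold change and a mean of at least 1 CPM; RNF185, FAU, MRPL49, the single cell type markers and the further chaperones were named after their values were seen.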

Additional observations from a re-analysis of the deposited data

Results flagged for a closer look

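Among 34 groups of 5 libraries examined (each gene of interest and each ratio in each treatment), 6 held a library whose gap to the nearest other value took more than 0.71 of the range of its group. Chance gives about 1 in 20 groups, or 1.7 here. All 6 were control replicate 2 or HG column 1. Control replicate 2 had 92.8 CPM of XBP1 against 81.3 to 84.2 in the other control libraries, 56.6 CPM of EDEM1 against 64.7 to 66.3, 325 CPM of ATF4 against 267 to 277, and a SYVN1 to SEL1L ratio of 0.603 against 0.341 to 0.405. HG column 1 had 82.6 CPM of SEL1L against 116 to 126 in the other HG libraries and a SYVN1 to SEL1L ratio of 0.507 against 0.294 to 0.340. In both libraries counts rose with GC content, and the part of this trend in each value was not tested beyond the corrected fits given above.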

How the results depend on the processing

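XBP1 passed under all 21 alternatives without a block (log2 fold change -0.35 to -0.26). The number of the 10 genes that passed was 3 under every alternative without a block that kept whole groups or left out both libraries with a GC trend, except 2 with library size alone and with limma on log2(FPKM + 1) or log2(FPKM + 0.1), where EIF2AK3 was lost, and it was 1 to 3 with a library left out, with SYVN1 or EIF2AK3 lost as named above. Without HG column 1 and control replicate 2, 4035 genes passed in place of 2303, 1984 higher and 2051 lower, and with the GC content and length correction 3968, 1961 higher and 2007 lower, with 53 and 55 list genes in place of 29. With a library left out, the counts were 1648 to 2993 genes, 798 to 1469 higher, 850 to 1524 lower, 719 to 849 past a fold change of 1.5, and 22 to 39 list genes. The count past a fold change of 1.5, 772 in the edgeR fit, was 304 with limma on log2(FPKM + 1) and 285 when mean FPKM had to reach 1. The ratio of SYVN1 to SEL1L gave -0.29 without both libraries, -0.27 with the correction and -0.42 to -0.14 with a library left out. Signs changed only in genes that did not pass. With a library left out, ATF6 lay between -0.0593 and 0.0146 (above 0 without HG column 1), SEL1L between -0.0295 (without control replicate 2) and 0.162, and OS9 between -0.0507 and 0.0419 (above 0 without HG column 2, 4 or 5 or control replicate 2 or 3). ATF6 was 0.0166 without both libraries with a GC trend, and OS9 was 0.0105 with library size alone, 0.00211 without a filter, 0.0393 with limma on log2(FPKM + 0.1) and 0.0389 in the other limma fits. The cause of these changes was not tested. The headers number the columns of both groups, while the titles letter the HG samples, and nothing in the labels pairs them. Libraries of equal number did not deviate together (correlations of their deviations across genes -0.0656 to 0.0392), and 1 of 5 HG libraries and none of the control libraries correlated best with its own number. With column number as a replicate block, a fit added after seeing the data, 1 of the 10 genes passed (XBP1), with 1071 genes, 508 higher and 563 lower, and 18 list genes. ERN1, with 202 to 354 counts per library, had the widest interval of the 10 genes, and the counts show neither XBP1 splicing nor protein.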

Other observations

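Of 9 receptors of ER-phagy, the autophagy of the ER itself, CCPG1, whose transcription ER stress is known to induce, went from 72.4 ± 7.83 CPM in the control group to 100 ± 10.9 in the HG group (SD, n = 5 each), without overlap between the groups. Its log2 fold change was 0.47 with an adjusted p of 0.00688 by edgeR's quasi-likelihood test, and 0.48 with an adjusted p of 0.152 by limma on log2(FPKM + 1). The other 8 receptors did not pass, so that 11.1% of the list passed beside 15.4% of all genes. Of the 9, 2 passed without HG column 1, where 2993 of all genes passed in place of 2303. With DESeq2, 2 passed (22.2%), beside 19.9% of all genes in that fit. Without HG column 1 and control replicate 2, 3 passed (33.3%), beside 27.1% of all genes. None passed with limma, with 1 at an unadjusted p under 0.05. In the edgeR fit of all libraries the median log2 fold change of the list was -0.07. CCPG1 was higher and the chaperone HSPA5 lower in 5 of 5 HG libraries than in every control library.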
